A study of Mus musculus with 21 samples.

Results

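Interferon-stimulated genes are the antiviral and immune genes that cells switch on when interferon reaches them. A fixed list of 41 such mouse genes was followed here in primary osteoblasts treated for 4 h with vehicle or with 1 of 6 analogs of parathyroid hormone (PTH). A gene was taken from the rows of the array table that carried its symbol alone, using the row with the highest mean where it had several. In this way 38 of the 41 genes were measured, out of 22180 genes with a single symbol. Oas1a and Gbp2 were found only in rows shared with a neighbouring gene (Oas1g and Gbp2b), and Ifi44 had no row that could be used. Ifi35 had 2 rows, and all other members had 1.

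The cells were isolated from calvariae, the bones of the skull vault, of C57BL/6J pups aged 7 to 10 days, were used at passage 2, and were differentiated from day 3. From day 10 they were kept without serum for 24 h, and hormone or vehicle was then added. Per the labels, cells were prepared separately for each replicate, with 3 arrays in each of 7 groups and 21 arrays in all. The groups were vehicle, hPTH(1-34), hPTH(1-31), PTH(1-36), bPTH(3-34) and hPTH(7-34), each analog at 100 nM, and at 1 µM the amide of bovine PTH(7-34) that carries D-Trp12 and Tyr34, written bPTH(7-34). The numbers in a name give the residues of the hormone that the peptide keeps. hPTH(1-34), hPTH(1-31) and PTH(1-36) keep its first residues and are referred to as intact analogs, whereas bPTH(3-34), bPTH(7-34) and hPTH(7-34) lack it and are called truncated analogs.

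Type I interferons act through the receptor Ifnar1/Ifnar2 and the kinases Jak1 and Tyk2. Signalling from them leads Stat2 and Irf9 to bind a short DNA element, the interferon-stimulated response element (ISRE), at many interferon-stimulated genes. Interferon gamma acts through Ifngr1/Ifngr2 and a second DNA element, the gamma-activated site, and raises Irf1, the guanylate-binding proteins and the immunity-related GTPases. The PTH receptor Pth1r, present on osteoblasts, signals mainly through cyclic AMP.

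The 300 bases from 250 before to 50 after a start site were available for 28 of the 38 measured members in the RefSeq promoter table (GRCm38.p6). The ISRE core, written GAAANNGAAA and searched on both strands, stood in 17 of these 28 (60.7%), in 41.0% of 61 other interferon-stimulated genes and in 3.99% of all 27025 genes with a promoter. The gamma-activated site TTCNNNGAA, which reads the same on both strands, stood in 7 of the 28 (25.0%). It stood in 13.1% of the 61 other interferon-stimulated genes and in 9.55% of all genes. Counted over all 32851 promoters, the shares were 3.44% for the ISRE core and 8.30% for the gamma-activated site. A promoter can hold both strings, and their matches can share bases. The 5 stretches of 80 bases printed here belong to members called in at least 1 comparison, with the ISRE core before the start site. They are shown to place the core in front of these 5 genes only. In Ifih1, Ddx58, Trim21 and Eif2ak2, also called, every match lay after the start site, that of Ifih1 beginning at base 33. The windows of Ifit2, Parp12, Xaf1 and Herc6, called as well, held no match.
Ifit1, chr19:34640769-34640848, plus strand: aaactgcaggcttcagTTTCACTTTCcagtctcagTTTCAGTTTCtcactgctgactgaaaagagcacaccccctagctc
Gbp7, chr3:142530248-142530327, plus strand: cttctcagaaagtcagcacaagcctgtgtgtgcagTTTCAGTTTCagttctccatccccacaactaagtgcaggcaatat
Igtp, chr11:58199476-58199555, plus strand: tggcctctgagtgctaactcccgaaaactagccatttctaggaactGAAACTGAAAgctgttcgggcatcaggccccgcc
Irgm1, chr11:48871421-48871500, minus strand: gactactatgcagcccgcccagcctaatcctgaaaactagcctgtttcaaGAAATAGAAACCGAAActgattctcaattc
Rsad2, chr12:26456528-26456607, minus strand: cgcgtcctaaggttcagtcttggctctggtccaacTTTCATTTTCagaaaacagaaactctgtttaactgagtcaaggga
The sequences are RefSeq sequence of GRCm38.p6, written 5′ to 3′ on the strand of the gene and ending before its start site. Capitals mark each match to the ISRE core, which appears as its reverse complement where the match lies on the other strand. Ifit1 held 2 separate matches, and the 2 matches of Irgm1 overlapped. The nearest match began 85 bases before the start site in Ifit1, 53 in Gbp7, 34 in Igtp, 24 in Irgm1 and 120 in Rsad2. A match is a string in a window, and whether a factor binds it was not measured.

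Array signals were read as log2 values, so a difference of 1 is a doubling, and the signals of different genes were not set against each other. The 21 arrays had medians between 3.49 and 3.61. In vehicle, 36 of the 38 members had a mean signal above the highest of those medians. The 2 members below it were Mx1 (2.93 ± 0.30) and Mx2 (3.42 ± 0.23; this and later ± values are mean ± SD of 3 arrays), antiviral GTPases whose genes the RefSeq table lists as transcribed pseudogenes in this strain's reference. Osteoblast genes were present, with Col1a1 at 13.25 ± 0.04 and Alpl at 8.93 ± 0.16 in vehicle. So were genes of macrophages, with Lyz2 at 12.22 ± 0.08, Cd68 at 11.29 ± 0.21 and Csf1r at 10.20 ± 0.06, and the interferon-stimulated genes are expressed by macrophages as well as by osteoblasts. The cyclic AMP early response genes were read beside the labels. Their list was chosen with earlier results of these data known, so their counts are no independent check of the labels. Of 16 such genes, 16, 15 and 15 rose with hPTH(1-31), hPTH(1-34) and PTH(1-36), beside 4.38%, 3.90% and 3.68% of all genes. With hPTH(7-34), bPTH(3-34) or bPTH(7-34) 0 were called. Of all genes, hPTH(7-34) had 0.0586% called higher and 0.0135% lower, and both bovine analogs had 0%. At an unadjusted p under 0.05, 1, 1 and 3 passed, beside 8.19%, 5.92% and 5.19% of all genes. Dgat1, an enzyme of triglyceride synthesis, differed from vehicle by +4.00 with hPTH(1-34) and +0.17 with hPTH(7-34).

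The members stood highest with hPTH(7-34), the human peptide that lacks the start of the hormone. Averaged over the 38 members, the 3 hPTH(7-34) arrays lay at 7.31, 7.31 and 7.33, and the 3 vehicle arrays at 6.95, 7.21 and 6.79. All 3 hPTH(7-34) arrays lay above every other array. The other truncated analog used at 100 nM, bPTH(3-34), gave 7.09, 7.01 and 7.11, and bPTH(7-34) at 1 µM gave 7.18, 6.90 and 6.88. The intact analogs lay within the span of vehicle, with 6.97, 6.86 and 6.93 for hPTH(1-31), 6.99, 6.99 and 6.79 for hPTH(1-34), and 7.17, 7.05 and 6.82 for PTH(1-36). Gene by gene, the hPTH(7-34) mean was the highest of the 7 group means in 31 of 38 members, against 17.5% of all genes. The other 7 members were Ifit1, Ifit3, Ifi35, Oas3, Oasl1, Irf9 and Bst2. In a bulk array, a higher level in each cell cannot be told apart from more cells that express the gene.

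**Figure D1:**
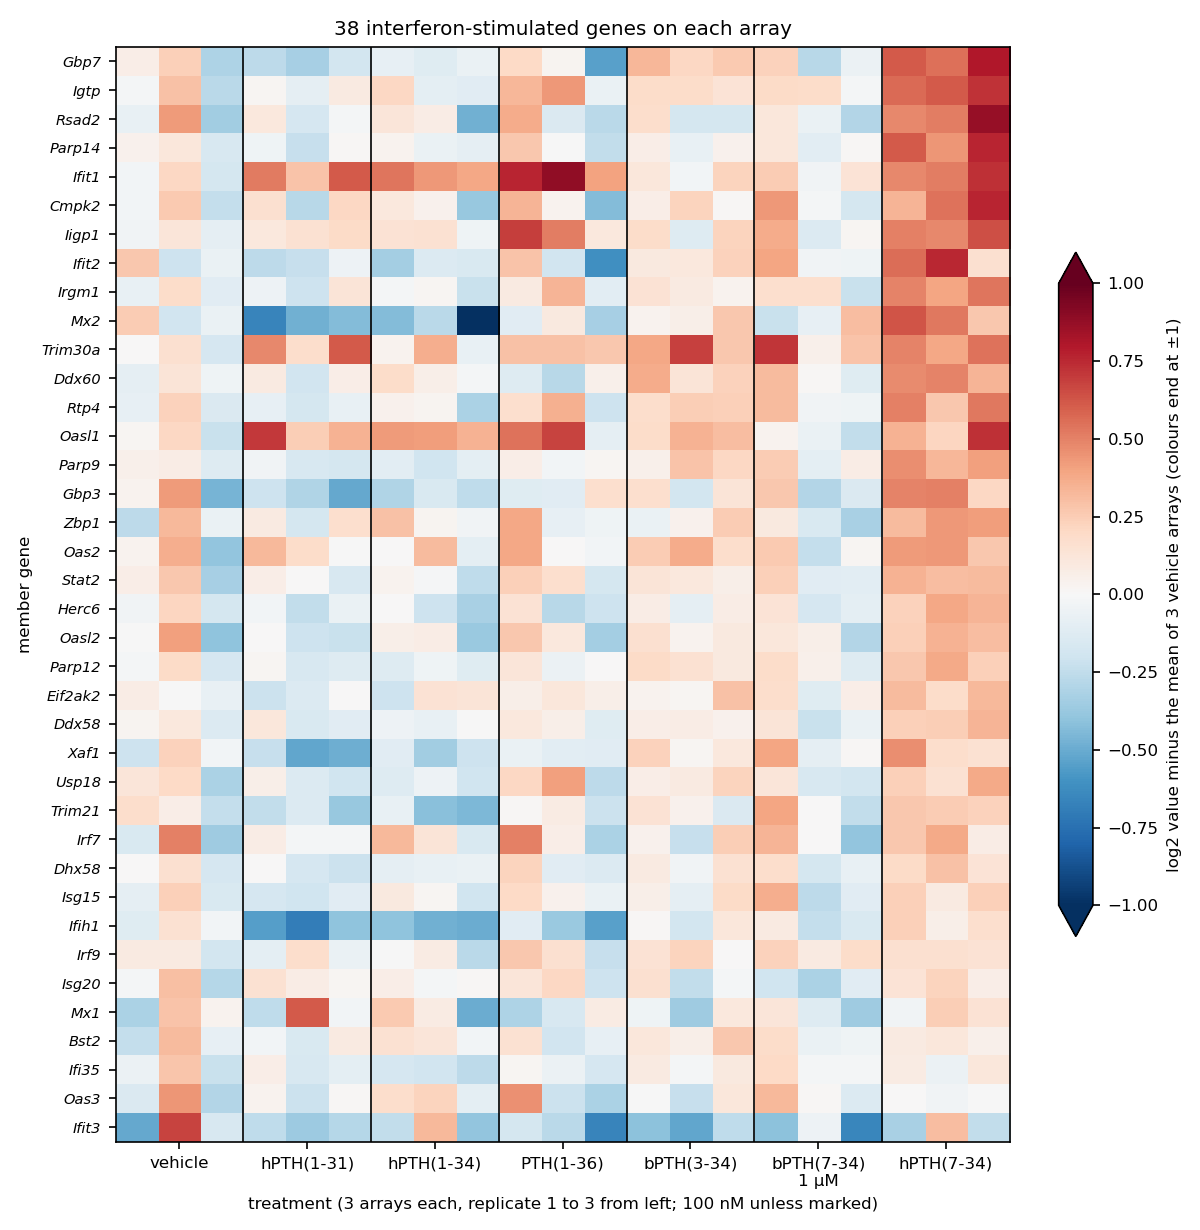
Each row is 1 of the 38 measured interferon-stimulated genes and each column 1 of the 21 arrays, grouped by treatment. Colour gives the log2 value minus the mean of the 3 vehicle arrays, with the scale ending at 1 in both directions, and rows are ordered by the difference between hPTH(7-34) and vehicle. The 3 hPTH(7-34) columns at the right are red for most rows, Ifit1 is red also with the 3 intact analogs, and Ifih1 and Mx2 are blue with hPTH(1-31) and hPTH(1-34).

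Against vehicle, however, 0 of the 38 members were called with hPTH(7-34) (limma, Benjamini-Hochberg adjusted p under 0.05), where 0.0586% of all genes were called higher and 0.0135% lower. The median member differed by +0.32 (1.25-fold), 36 of 38 differences were positive, and the median of all genes was 0.00. At an unadjusted p under 0.05, 23 of the 38 passed, all of them higher, against 8.19% of all genes in either direction. In 21 of 38 members all 3 hPTH(7-34) arrays lay above all 3 vehicle arrays, against 6.68% of all genes. The smallest adjusted p among the members was 0.102 (limma), for Parp14. The largest differences were those of Gbp7 (+0.65, SE 0.17), Igtp (+0.63, SE 0.14), Rsad2 (+0.62, SE 0.21), Parp14 (+0.61, SE 0.12), Ifit1 (+0.58, SE 0.13), Cmpk2 (+0.55, SE 0.20) and Iigp1 (+0.54, SE 0.14), and none of them was called. Only Ifit3 (-0.09) and Oas3 (-0.01) had a negative difference.

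The vehicle arrays differed among themselves more than the hPTH(7-34) arrays did in these genes, with an SD of the members' mean of 0.21 against 0.01. Vehicle replicate 2 was the highest of its group in 33 of 38 members, a position it held in 34.2% of all genes, and vehicle replicate 3 was the lowest in 29 of 38, against 36.1% of all genes. Without vehicle replicate 2 the median difference of hPTH(7-34) from vehicle was +0.43, all 38 differences were positive and 1 member was called, Igtp. Without vehicle replicate 3 the median was +0.22 and 0 members were called, and without vehicle replicate 1 it was +0.33 with 0 called. Other groups had such arrays too. bPTH(7-34) replicate 1 was the highest of its group in 34 of 38 members (34.6% of all genes), PTH(1-36) replicate 3 the lowest in 29 (35.9%) and hPTH(1-34) replicate 3 the lowest in 28 (34.98%). Replicate 3 had the lowest members' mean in vehicle, hPTH(1-34), PTH(1-36) and bPTH(7-34), and the highest in bPTH(3-34) and hPTH(7-34). In hPTH(1-31) the lowest was replicate 2. Whether arrays of the same number share a preparation was not tested for the members alone. Among the hPTH(7-34) arrays the highest value was spread over 7, 14 and 15 members, and among the bPTH(3-34) arrays over 12, 8 and 16.

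**Figure D2:**
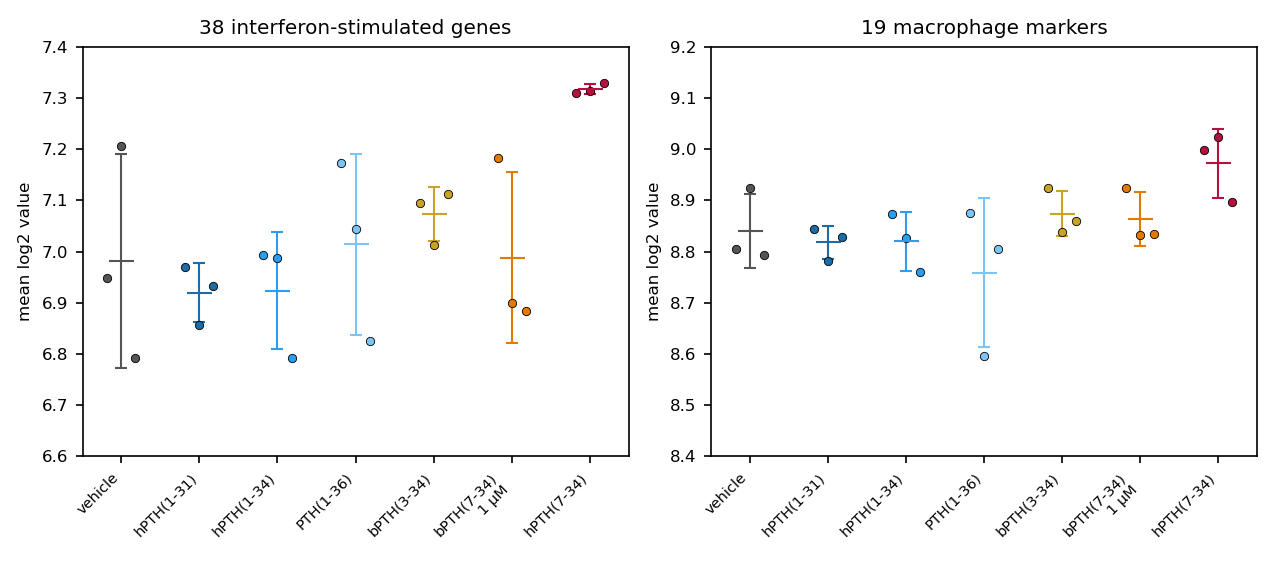
The left panel plots the mean log2 value of the 38 members on each array and the right panel that of 19 macrophage markers, by treatment; points are arrays, the long bar is the group mean and the whiskers are 1 SD (n = 3). In the left panel the hPTH(7-34) arrays sit between 7.31 and 7.33 and the vehicle arrays between 6.79 and 7.21. In the right panel hPTH(7-34) lies between 8.90 and 9.02 and vehicle between 8.79 and 8.92.

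Markers of other cell types were read beside these differences. Of 20 macrophage markers 19 were measured and none was at 0. With hPTH(7-34) against vehicle 0 of the 19 were called, beside 0.0586% of all genes higher and 0.0135% lower. At an unadjusted p under 0.05, 3 of the 19 passed, beside 8.19% of all genes. The macrophage markers had a median difference of +0.14, with 16 of 19 positive. Their mean log2 value ran from 8.79 to 8.92 in vehicle and from 8.90 to 9.02 with hPTH(7-34). The log2 of their summed signal ran from 14.11 to 14.26 and from 14.22 to 14.38. Against hPTH(1-34), 1 of the 19 was higher (Cx3cr1, by 0.59), beside 6.66% of all genes, and the median was +0.17. The part of these cells in the members' differences was not tested. Markers of dendritic cells (6 measured, median +0.02), lymphoid cells (7, -0.27), neutrophils (6, -0.16), osteoclasts (8, +0.06) and endothelium (6, -0.03) had 0 called genes against vehicle. At an unadjusted p under 0.05, 1, 2, 0, 0 and 1 of them passed, beside the same 8.19% of all genes.

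Set against the intact analogs at the same dose, hPTH(7-34) gave called differences. Against hPTH(1-34), 17 of 38 members were higher and 0 lower, where 6.66% of all genes were called higher and 4.20% lower, and the median member differed by +0.38. In 28 of 38 members all 3 hPTH(7-34) arrays lay above all 3 hPTH(1-34) arrays, against 16.6% of all genes. Against hPTH(1-31), 17 were higher and 0 lower (6.19% and 4.24% of all genes), with a median of +0.39. Against PTH(1-36), 7 were higher and 0 lower (5.04% and 3.45% of all genes), with a median of +0.28. The 3 comparisons share the hPTH(7-34) arrays and are not independent of one another. At an unadjusted p under 0.05, 25, 26 and 17 members passed against hPTH(1-34), hPTH(1-31) and PTH(1-36), all higher, and 23 did against vehicle. The share of all genes at that cutoff is not reported here for the intact analogs. The adjustment runs over all genes, so the counts of calls do not show that the members differed more from the intact analogs than from vehicle.

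These counts depended on single arrays. Against hPTH(1-34), 17 calls became 8 without hPTH(1-34) replicate 3, 10 without its replicate 2, and 9 without hPTH(7-34) replicate 1 or replicate 2. Ifih1, Mx2, Parp9, Parp14, Igtp, Irgm1 and Gbp7 were called each time, whichever of the 6 arrays was left out. Against hPTH(1-31), 17 calls became 8 without hPTH(1-31) replicate 2, 9 without hPTH(7-34) replicate 1 and 10 without its replicate 2, and the 7 called each time were Ifih1, Mx2, Parp9, Parp14, Igtp, Gbp7 and Xaf1. Against PTH(1-36), 7 became 4 without PTH(1-36) replicate 3 and 3 without hPTH(7-34) replicate 1, and Ddx60, Parp14 and Gbp7 were called each time. The median differences kept their sign, between +0.33 and +0.42 against hPTH(1-34), +0.36 and +0.42 against hPTH(1-31), and +0.19 and +0.36 against PTH(1-36).

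**Figure D3:**
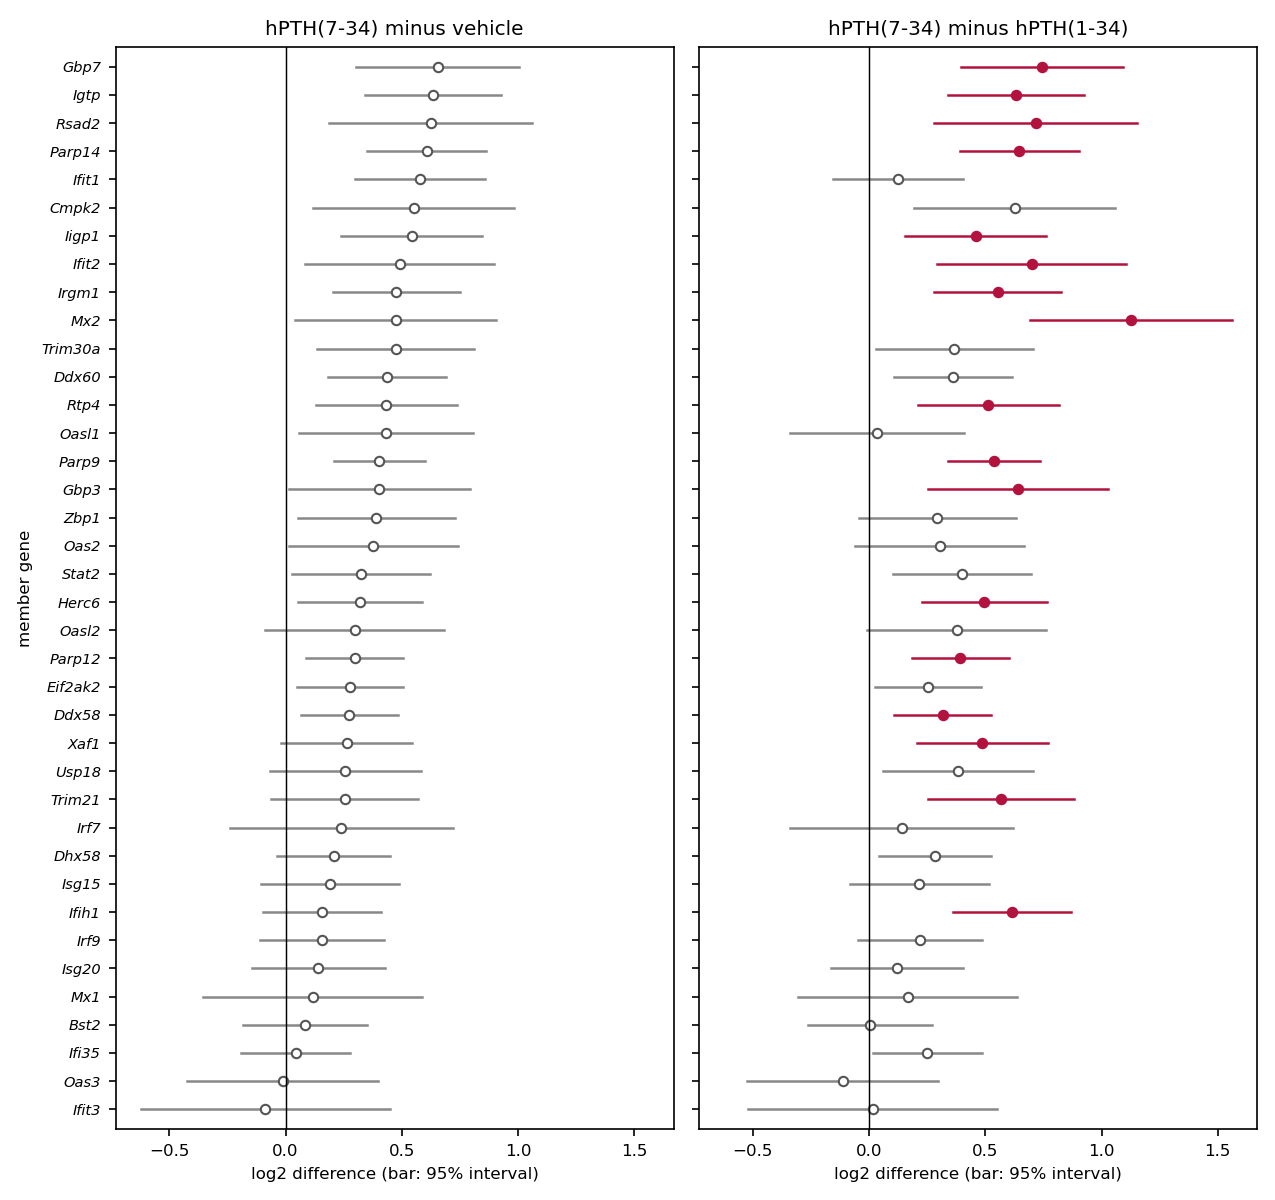
The left panel gives the log2 difference of hPTH(7-34) from vehicle for each of the 38 members and the right panel that from hPTH(1-34), with bars for the 95% interval; filled red points were called at an adjusted p under 0.05. At left 36 points lie to the right of 0 and 0 are filled. At right 17 are filled, and Mx2, a gene of low signal, stands at +1.13.

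The RNA sensors Ifih1 (MDA5) and Ddx58 (RIG-I) detect viral RNA in the cytoplasm, and Ddx60 and Dhx58 assist them. Ifih1 (chr2:62595618-62646255) was the member that intact analogs lowered. Its log2 values were 8.17, 8.44 and 8.26 in vehicle, 7.74, 7.60 and 7.89 with hPTH(1-31), 7.89, 7.81 and 7.79 with hPTH(1-34), and 8.18, 7.92 and 7.75 with PTH(1-36). The truncated analogs gave 8.30, 8.11 and 8.40 with bPTH(3-34), 8.38, 8.05 and 8.14 with bPTH(7-34), and 8.53, 8.35 and 8.46 with hPTH(7-34). All arrays of hPTH(1-31) and hPTH(1-34) lay below all vehicle arrays, while PTH(1-36) overlapped vehicle in 1 array. Ifih1 fell by 0.55 with hPTH(1-31) (SE 0.12, limma adjusted p = 0.00603) and by 0.46 with hPTH(1-34) (SE 0.12, limma adjusted p = 0.0209). Its difference was -0.34 with PTH(1-36), which was not called, and +0.16 with hPTH(7-34). The hPTH(1-34) call dropped out without vehicle replicate 2 (limma adjusted p = 0.107), hPTH(1-34) replicate 2 (0.0681) or hPTH(1-34) replicate 3 (0.0697), and the hPTH(1-31) call was kept whichever array was left out. With hPTH(7-34), Ifih1 was higher than with hPTH(1-34) by 0.62, hPTH(1-31) by 0.70 and PTH(1-36) by 0.50, each called. The Ifih1 call against PTH(1-36) was lost without PTH(1-36) replicate 3 (limma adjusted p = 0.0733) or hPTH(7-34) replicate 1 (0.0641).

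Ddx58 was 8.81 ± 0.06 with hPTH(7-34), 8.53 ± 0.12 in vehicle and 8.49 ± 0.04 with hPTH(1-34), and was called higher than hPTH(1-34) by 0.32 and hPTH(1-31) by 0.32, the smallest differences called in those comparisons. Ddx60, whose promoter also held the ISRE core, was 5.71 ± 0.09 with hPTH(7-34) and 5.27 ± 0.12 in vehicle. It was called higher than hPTH(1-31) by 0.45 and PTH(1-36) by 0.56. Dhx58 was called in no comparison.

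The Ifit proteins bind viral RNA and limit its translation, and their genes lie together on chromosome 19. Ifit1 (chr19:34640889-34650009) was the 1 member that all 3 intact analogs raised. Its log2 values were 8.60, 8.83 and 8.45 in vehicle, 9.15, 8.91 and 9.24 with hPTH(1-31), 9.16, 9.06 and 9.01 with hPTH(1-34), and 9.39, 9.51 and 9.03 with PTH(1-36). They were 8.74, 8.60 and 8.85 with bPTH(3-34), 8.88, 8.59 and 8.76 with bPTH(7-34), and 9.11, 9.14 and 9.36 with hPTH(7-34). Each intact group and hPTH(7-34) lay wholly above vehicle, and the 2 bovine truncated groups overlapped it. Ifit1 rose by 0.47 with hPTH(1-31) (SE 0.13, limma adjusted p = 0.0313), 0.45 with hPTH(1-34) (SE 0.13, limma adjusted p = 0.0421) and 0.68 with PTH(1-36) (SE 0.13, limma adjusted p = 0.00242). The difference with hPTH(7-34) was +0.58 (SE 0.13) and was not called (limma adjusted p = 0.194). Between hPTH(7-34) and hPTH(1-34) Ifit1 differed by +0.13, with a 95% interval of -0.15 to +0.41.

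The PTH(1-36) call of Ifit1 was kept whichever single array was left out. The hPTH(1-31) call did not hold without vehicle replicate 1 (limma adjusted p = 0.0899) or 3 (0.137), nor without hPTH(1-31) replicate 1 (0.0995) or 3 (0.135). The hPTH(1-34) call did not hold without vehicle replicate 1 (0.112) or 3 (0.167), nor without any of the 3 hPTH(1-34) arrays (0.141, 0.097 and 0.069). Ifit2 and Ifit3 were called with no analog against vehicle. Ifit2 was 5.05 ± 0.24 in vehicle, 4.84 ± 0.12 with hPTH(1-34) and 5.54 ± 0.31 with hPTH(7-34), and was called higher with hPTH(7-34) than with hPTH(1-34) (by 0.70), hPTH(1-31) (by 0.67) and PTH(1-36) (by 0.66). Ifit3 was 5.28 ± 0.61 in vehicle, with arrays at 4.77, 5.96 and 5.12, and its differences from vehicle ran from -0.40 to -0.09, none called.

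The poly(ADP-ribose) polymerases Parp9, Parp12 and Parp14 are interferon-induced enzymes that modify proteins. Parp14 (chr16:35831892-35871518) was flat in 6 groups and higher in the seventh. Its values were 8.09, 8.16 and 7.89 in vehicle, 8.0, 7.82 and 8.06 with hPTH(1-31), 8.08, 7.98 and 7.96 with hPTH(1-34), and 8.32, 8.04 and 7.80 with PTH(1-36). They were 8.11, 7.97 and 8.09 with bPTH(3-34), 8.16, 7.94 and 8.06 with bPTH(7-34), and 8.66, 8.49 and 8.81 with hPTH(7-34). The 3 hPTH(7-34) arrays exceeded all others. Parp14 was higher with hPTH(7-34) by 0.65 than with hPTH(1-34), 0.69 than with hPTH(1-31) and 0.60 than with PTH(1-36) (SE 0.12 each, limma adjusted p = 0.00144, 0.000752 and 0.00325). The differences from vehicle (+0.61) and bPTH(3-34) (+0.60, 95% interval 0.34 to 0.85, limma adjusted p = 0.148) were as large and were not called.

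Parp9 (chr16:35938470-35972621), on the same chromosome, was 6.44, 6.46 and 6.26 in vehicle, 6.35, 6.23 and 6.21 with hPTH(1-31), 6.28, 6.19 and 6.29 with hPTH(1-34), and 6.45, 6.36 and 6.41 with PTH(1-36). The truncated groups were 6.44, 6.67 and 6.59 with bPTH(3-34), 6.64, 6.29 and 6.46 with bPTH(7-34), and 6.85, 6.72 and 6.80 with hPTH(7-34). The hPTH(7-34) arrays were again the highest of all. Parp9 was higher with hPTH(7-34) than with hPTH(1-34) by 0.54 (SE 0.09, limma adjusted p = 0.000745), hPTH(1-31) by 0.53 and PTH(1-36) by 0.38. It was also higher with bPTH(3-34) than with hPTH(1-34) by 0.31 (limma adjusted p = 0.0426). Parp12 was 9.06 ± 0.07 with hPTH(7-34), 8.76 ± 0.18 in vehicle and 8.66 ± 0.05 with hPTH(1-34), and was called against hPTH(1-34) and hPTH(1-31), by 0.39 in both.

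Mx2 (chr16:97536081-97560901) had low signals. Every hPTH(1-31) and hPTH(1-34) array lay below the array medians of 3.49 to 3.61, so the gene was not shown to be above background there. Its values were 3.68, 3.23 and 3.36 in vehicle, 2.76, 2.94 and 2.99 with hPTH(1-31), 2.99, 3.15 and 2.17 with hPTH(1-34), and 3.31, 3.52 and 3.09 with PTH(1-36). They were 3.46, 3.48 and 3.69 with bPTH(3-34), 3.20, 3.34 and 3.73 with bPTH(7-34), and 4.05, 3.95 and 3.69 with hPTH(7-34). The hPTH(1-31) and hPTH(1-34) arrays all lay below vehicle and the hPTH(7-34) arrays all above it, the lowest at 3.69 against 3.68 for the highest vehicle array. Mx2 was called higher with hPTH(7-34) than with hPTH(1-34) (+1.13, SE 0.21, limma adjusted p = 0.00111) and hPTH(1-31) (+1.00), and no fold is drawn from signals this low. With bPTH(3-34) it was higher than with hPTH(1-34) by 0.77 (limma adjusted p = 0.0215). Its difference from vehicle was -0.65 with hPTH(1-34) (limma adjusted p = 0.0581) and was not called with any analog, although Mx2 was called lower with hPTH(1-34) without hPTH(1-34) replicate 2 (limma adjusted p = 0.0221). Mx1 was called nowhere.

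**Figure D4:**
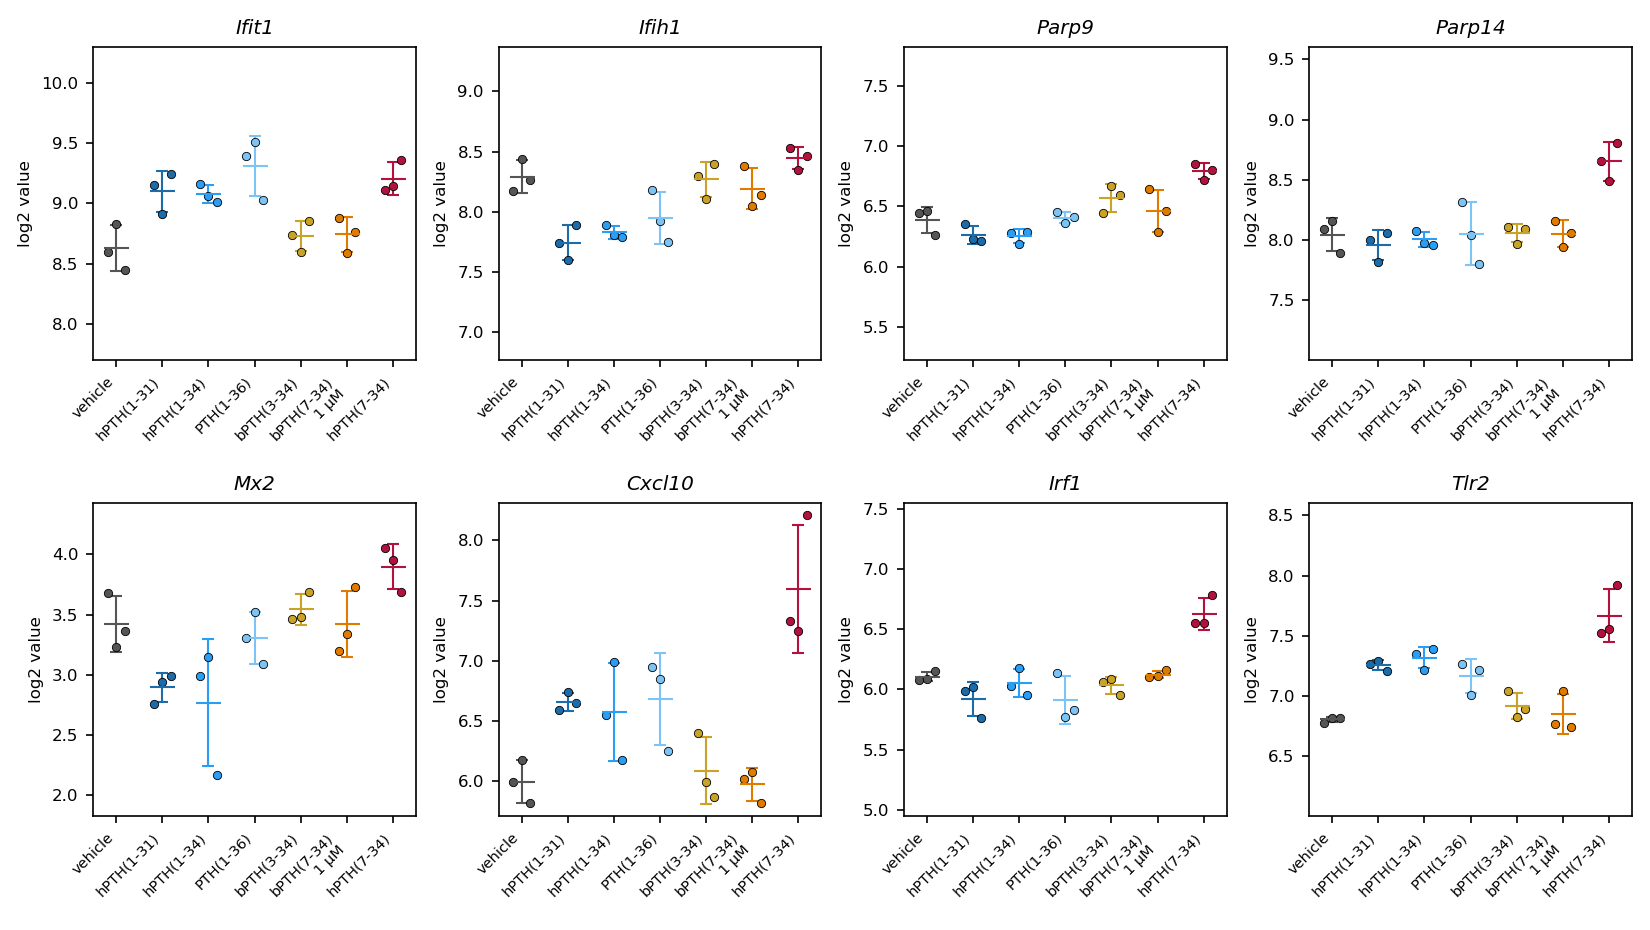
Each panel plots the log2 values of 1 gene on the 21 arrays by treatment; points are arrays, the long bar is the group mean and the whiskers are 1 SD (n = 3), and each panel has its own axis range. Parp14, Parp9, Irf1 and Cxcl10 have their 3 highest arrays with hPTH(7-34), Ifit1 is raised with the intact analogs as well, and Ifih1 is lowest with hPTH(1-31) and hPTH(1-34).

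The guanylate-binding proteins and immunity-related GTPases attack the membranes around intracellular pathogens and are typical targets of interferon gamma. Gbp7 (chr3:142530336-142550151) was 7.80, 7.97 and 7.42 in vehicle, 7.65, 7.61 and 7.66 with hPTH(1-34), and 8.34, 8.28 and 8.53 with hPTH(7-34). bPTH(3-34) gave 8.06, 7.94 and 7.99, between vehicle and hPTH(7-34). Gbp7 was higher with hPTH(7-34) than with hPTH(1-34) by 0.74 (SE 0.17, limma adjusted p = 0.00605), hPTH(1-31) by 0.91 and PTH(1-36) by 0.76. Gbp3 was 6.70 ± 0.17 with hPTH(7-34), 6.29 ± 0.45 in vehicle and 6.06 ± 0.08 with hPTH(1-34), and was called against hPTH(1-34) (by 0.64) and hPTH(1-31) (by 0.74).

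Igtp (Irgm3, chr11:58199556-58207592) was 6.88, 7.19 and 6.63 in vehicle, 7.11, 6.80 and 6.79 with hPTH(1-34), and 7.47, 7.51 and 7.62 with hPTH(7-34), all 3 above every other array. It was higher with hPTH(7-34) by 0.63 than with hPTH(1-34) and with hPTH(1-31). Irgm1 was 6.79 ± 0.07 with hPTH(7-34), 6.31 ± 0.16 in vehicle and 6.24 ± 0.13 with hPTH(1-34), called against hPTH(1-34) (by 0.55) and hPTH(1-31) (by 0.52). Iigp1 was 7.71 ± 0.09 with hPTH(7-34), 7.17 ± 0.11 in vehicle and 7.25 ± 0.11 with hPTH(1-34), called against hPTH(1-34) alone (by 0.46). With PTH(1-36) Iigp1 was 7.60 ± 0.30.

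Of the remaining antiviral effectors, Rsad2 (viperin, which makes a chain-terminating nucleotide) was 6.61 ± 0.39 in vehicle and between 6.51 and 6.59 on average with every analog except hPTH(7-34), where it was 7.23 ± 0.22. It was called against hPTH(1-34), by 0.72. Rtp4, Herc6, Trim21, Xaf1 and Eif2ak2 (the kinase PKR, which halts translation) had smaller differences. Rtp4 was higher with hPTH(7-34) than with hPTH(1-34) by 0.51 and hPTH(1-31) by 0.54. Herc6 was higher than with hPTH(1-34) by 0.50, hPTH(1-31) by 0.43 and PTH(1-36) by 0.43. Trim21 and Xaf1 differed by 0.57 and 0.49 from hPTH(1-34) and by 0.51 and 0.67 from hPTH(1-31), and Eif2ak2 by 0.39 from hPTH(1-31). For Xaf1 and Trim21 the vehicle mean lay between the 2 groups. Xaf1 was 6.93 ± 0.22 in vehicle, 6.52 ± 0.16 with hPTH(1-31) and 7.19 ± 0.17 with hPTH(7-34), and Trim21 was 7.01 ± 0.21, 6.75 ± 0.12 and 7.26 ± 0.02.

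In all, 20 members were called in at least 1 of the 13 comparisons. The share of all genes called in at least 1 was not counted, so the 20 cannot be set against it. The other 18 members were called in none. Among these 18 were the interferon signal components themselves, with vehicle levels of 8.57 ± 0.31 for Stat2, 7.65 ± 0.16 for Irf9 and 8.53 ± 0.45 for Irf7, and differences from vehicle of -0.08 to +0.32, -0.06 to +0.17 and -0.02 to +0.24. For Stat2, Cmpk2, Dhx58 and Oasl1 the absence of a call depended on the setting. Stat2 and Cmpk2 were called higher with hPTH(7-34) than with hPTH(1-34) when a replicate block, the genes above the median level alone or a variance trend was used, and Dhx58 higher than with hPTH(1-31) under the last 2. Stat2 was also called against hPTH(1-31) with the block, Cmpk2 against PTH(1-36) with the genes above the median level or without PTH(1-36) replicate 1, and Oasl1 with PTH(1-36) against vehicle without PTH(1-36) replicate 3. The ubiquitin-like modifier Isg15 (8.33 ± 0.21) ranged from -0.16 to +0.19 and its protease Usp18 (7.98 ± 0.28) from -0.13 to +0.26. The oligoadenylate synthetases, which activate RNA decay, ranged from +0.02 to +0.38 for Oas2 (6.64 ± 0.38), -0.06 to +0.10 for Oas3 (6.14 ± 0.39), -0.09 to +0.43 for Oasl1 (4.61 ± 0.22) and -0.14 to +0.30 for Oasl2 (9.34 ± 0.41). The widest spread among vehicle arrays was that of Ifit3, Irf7, Gbp3 and Oasl2.

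The rest of the 18 covered several functions. Bst2 (tetherin, 10.42 ± 0.29) ranged from -0.04 to +0.15, Isg20 (an exonuclease, 7.05 ± 0.30) from -0.21 to +0.14, Zbp1 (a sensor of Z-form nucleic acid, 7.16 ± 0.30) from -0.13 to +0.39 and Dhx58 (6.47 ± 0.17) from -0.13 to +0.21. Cmpk2 (a nucleotide kinase, 6.83 ± 0.25) ranged from -0.08 to +0.55, Trim30a (3.79 ± 0.17) from +0.11 to +0.47, Ifi35 (7.21 ± 0.26) from -0.21 to +0.06 and Mx1 from -0.13 to +0.12. Isg15, Irf7, Usp18 and Oas2 were thus called in no comparison, although each had its highest group mean with the human truncated analog. Rsad2, Ifit1, Ifit2, Ifih1 and Ddx58 were each called in some comparison.

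Over the 6 contrasts with vehicle together, the F test called 9 of 38 members (limma, adjusted p under 0.05), against 12.2% of all genes. They were Ifih1, Ifit1, Parp9, Parp14, Mx2, Gbp7, Xaf1, Igtp and Ddx60. Without hPTH(7-34) replicate 3 the count was 5. Singly, hPTH(1-31) raised 1 member and lowered 1 (4.38% and 4.32% of all genes), hPTH(1-34) raised 1 and lowered 1 (3.90% and 4.74%), and PTH(1-36) raised 1 and lowered 0 (3.68% and 3.54%). Those are Ifit1 and Ifih1. The medians over the members were -0.06, -0.08 and +0.01, and their sign depended on single arrays. Without vehicle replicate 2 they were +0.05, +0.04 and +0.12, and without vehicle replicate 3 they were -0.17, -0.15 and -0.09. The hPTH(1-34) median was +0.03 without hPTH(1-34) replicate 3, and the PTH(1-36) median was -0.05 without PTH(1-36) replicate 1. Without PTH(1-36) replicate 1 or replicate 3 the PTH(1-36) count was 2 or 3. The hPTH(1-34) count was 0 without hPTH(1-34) replicate 3 and 1 without any other array of that contrast. That 1 member was Ifih1 in 3 cases, Ifit1 without vehicle replicate 2 and Mx2 without hPTH(1-34) replicate 2. Likewise the hPTH(1-31) count was 1 without vehicle replicate 3 or hPTH(1-31) replicate 3.

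The 2 bovine truncated analogs moved no member past the threshold. With bPTH(3-34) 0 of 38 were called, as were 0% of all genes, and 1 passed an unadjusted p under 0.05, against 5.92% of all genes. The median member differed by +0.10, with 32 of 38 positive, with 19 positive and a median of +0.01 without vehicle replicate 3, and 37 positive and +0.20 without vehicle replicate 2. With bPTH(7-34) at 1 µM, 0 of 38 were called, again with 0% of all genes, and 1 passed unadjusted, against 5.19%. The median was +0.01, but -0.10 with 5 of 38 positive without bPTH(7-34) replicate 1, -0.08 without vehicle replicate 3, and +0.13 with 33 positive without vehicle replicate 2. Differences from vehicle ran from -0.40 to +0.45 with bPTH(3-34) and from -0.37 to +0.35 with bPTH(7-34), with a 95% interval of about 0.30 on either side of a member's difference.

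Between analogs of the same dose, 7 pairs were compared directly, each with its p adjusted over all genes. hPTH(7-34) and bPTH(3-34) are both truncated at the start but differ in length and species. The members were higher with hPTH(7-34) by +0.22 at the median and 36 of 38 differences were positive, but 0 were called (0.0496% of all genes higher, 0% lower), and 11 passed unadjusted, all higher, against 5.07% of all genes. The intervals reached up to +1.12 (Rsad2) and down to -0.38 (Oas3), so differences of that size remain possible for single members. hPTH(1-31), which stops short of hPTH(1-34) at its far end, differed from it in 0 members (0% of all genes in either direction, 0 members and 4.48% of genes unadjusted), with differences of -0.20 to +0.32 and intervals from -0.73 to +0.65. PTH(1-36) against hPTH(1-34) also had 0 (0% higher and 0.00451% lower among all genes), with 2 members and 6.42% of genes unadjusted, differences of -0.27 to +0.54 and intervals from -0.80 to +0.97.

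The direct comparison of bPTH(3-34) with hPTH(1-34) called 3 members higher and 0 lower, where 5.38% and 3.94% of all genes were called. The 3 were Mx2 (by 0.77), Ifih1 (by 0.44) and Parp9 (by 0.31), and the median member differed by +0.17. The count was 1 without hPTH(1-34) replicate 2 and 0 without hPTH(1-34) replicate 3 or bPTH(3-34) replicate 3, and no member was called each time.

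The members were also read by the content of their promoters. The 17 with the ISRE core differed from vehicle by +0.32 at the median with hPTH(7-34), and 8 of them were called higher than with hPTH(1-34). The 11 without it differed by +0.30, with 4 called, and the 10 with no promoter in the table by +0.40, with 5 called. No test was made of this split. Ifit3 and Oas3, the members with negative differences, both held the core, and Ifit2, whose window lacked it but held a gamma-activated site, was among those called.

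The interferons and their receptors act upstream of the members. Of 18 such genes, 16 were measured and 0 were called with hPTH(7-34) against vehicle, beside 0.0586% of all genes higher and 0.0135% lower. At an unadjusted p under 0.05, 1 passed, beside 8.19% of all genes, and the median was -0.09. Ifnb1, interferon beta, was at 1.52, 1.34 and 1.92 in vehicle and 1.38, 1.45 and 1.51 with hPTH(7-34), signals near the lower end of the arrays, and its difference was -0.15. Ifngr2, a chain of the interferon gamma receptor, fell by 0.31 with hPTH(1-31) and was higher with hPTH(7-34) than with hPTH(1-34) by 0.31. Only 4 h were sampled, so the order of events was not measured.

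Among 15 measured signal transducers and feedback genes, 0 were called with hPTH(7-34) against vehicle, beside 0.0586% of all genes higher and 0.0135% lower. At an unadjusted p under 0.05, 2 passed, beside 8.19% of all genes, and the median was +0.12 with 13 positive. Against hPTH(1-34), 3 were higher and 2 lower, beside 6.66% and 4.20% of all genes. Irf1, a transcription factor typical of interferon gamma and NF-kappaB, was 6.08, 6.09 and 6.15 in vehicle and 6.55, 6.55 and 6.78 with hPTH(7-34), all 3 above every other array. It differed from vehicle by +0.52 (SE 0.10, limma adjusted p = 0.102, not called) and was called higher with hPTH(7-34) than with hPTH(1-34) (by 0.57), hPTH(1-31) (by 0.70), PTH(1-36) (by 0.71) and bPTH(3-34) (by 0.59, limma adjusted p = 0.0452). Stat3 and its feedback inhibitor Socs3 rose with the 3 intact analogs (Stat3 by 0.73, 0.69 and 0.53; Socs3 by 0.78, 0.68 and 0.51 with hPTH(1-31), hPTH(1-34) and PTH(1-36)). Tyk2, the kinase of the type I receptor, fell by 0.47 with hPTH(1-34) and by 0.60 with PTH(1-36), and its difference was -0.41 with hPTH(1-31), not called.

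Of 22 measured sensors and adaptors that induce interferon, 1 was called with hPTH(7-34) against vehicle, beside 0.0586% of all genes higher and 0.0135% lower. It was Tlr2, a receptor for bacterial lipopeptides. Tlr2 was 6.78, 6.82 and 6.82 in vehicle and 7.52, 7.56 and 7.92 with hPTH(7-34) and rose by 0.86 (SE 0.11, limma adjusted p = 0.00221). It also rose with hPTH(1-31) (by 0.45) and hPTH(1-34) (by 0.51), and was higher with hPTH(7-34) than with bPTH(3-34) by 0.75. Sting1, the adaptor of DNA sensing, rose with the 3 intact analogs by 0.26, 0.34 and 0.22.

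Of 85 other interferon-stimulated genes listed alongside the members, 75 were measured. Beside 0.0586% of all genes higher and 0.0135% lower, 1 of the 75 was called with hPTH(7-34) against vehicle. That was Cxcl10, a chemokine that attracts T cells, at 5.99, 6.18 and 5.82 in vehicle and 7.33, 7.25 and 8.21 with hPTH(7-34), a 3.03-fold rise (+1.60, SE 0.24, limma adjusted p = 0.00759). Cxcl10 was also called higher with hPTH(7-34) than with each other analog at 100 nM, by 0.91 to 1.51. Across the 75, the median difference was +0.23 and 69 were positive. Against hPTH(1-34), 8 of 75 were higher and 2 lower, beside 6.66% and 4.20% of all genes. With hPTH(1-31), hPTH(1-34) and PTH(1-36) against vehicle, 4, 4 and 5 of the 75 were higher and 3, 4 and 2 lower, beside the all-gene shares of 4.38%, 3.90% and 3.68% higher and 4.32%, 4.74% and 3.54% lower. Trim12a, a relative of the antiviral Trim5, fell by 0.62, 0.81 and 0.63 with hPTH(1-31), hPTH(1-34) and PTH(1-36), and Pml, which builds nuclear bodies, by 0.40, 0.44 and 0.40. Plac8, Helz2 and Trim25 rose with the same 3 analogs, by 0.63 to 0.69, 0.55 to 0.69 and 0.33 to 0.51.

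Inflammatory genes induced by NF-kappaB were followed because several are also raised by interferon. Of 29 measured, 15, 15 and 10 rose with hPTH(1-31), hPTH(1-34) and PTH(1-36), beside 4.38%, 3.90% and 3.68% of all genes. With hPTH(7-34) 2 rose, beside 0.0586% of all genes. They were Ccl2 (by 1.16, limma adjusted p = 0.0155) and Tnf (by 0.95, limma adjusted p = 0.0252). Il6 rose by 2.37 with hPTH(1-34) and differed by -0.08 with hPTH(7-34). Il6 and Ptgs2 also stood in the list of cyclic AMP early response genes, so the 2 lists overlap. With hPTH(7-34) against hPTH(1-34), 0 of the 29 were higher and 7 lower, beside 6.66% and 4.20% of all genes. In that comparison 17 members were higher and 0 lower. Averaged over the 29 genes, the hPTH(7-34) arrays lay at 5.82 to 5.91, above the vehicle arrays at 5.53 to 5.67. The hPTH(1-34) arrays lay higher still, at 6.14 to 6.18.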

How the data were processed

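Mouse Gene 2.0 ST arrays were hybridised with 100 ng of total RNA from each of 21 cultures. The deposited values, read as log2, were made by the authors with RMA in Affymetrix Expression Console, per the submitters' processing notes. Version, settings and base of the logarithm are not given in the sources used here. The values ran from 0.25 to 13.6, and every fold rests on that reading. Of 41345 deposited rows, 23521 carried 1 gene symbol, 1814 several, and 16010 were unnamed in the platform annotation used here. The row with the highest mean stood for each of 1082 genes with several, which left 22180 genes. All 23328 identifiers matched to the RefSeq table (GRCm38.p6) had the same symbol there.

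The 21 arrays were fitted together, with a mean per group, by lmFit, contrasts.fit and eBayes of limma 3.58.1 under R 4.3.3. Two-sided p-values of each contrast were adjusted over the 22180 genes (Benjamini-Hochberg), with calls at an adjusted p under 0.05. Arrays give no read depth, and 3 per group limit the precision. The fit was tested on simulated data. Members and lists were chosen with earlier results of these data known. Members called in any contrast with vehicle are named with values, the 5 with the smallest F test p with every array, members called nowhere with their vehicle level and range, and up to 6 genes of each other list by F test p. The arrays of Gbp7, Igtp, Ifit3, Irf1, Tlr2, Cxcl10 and Ifnb1 were given for some groups only, and after their values were seen. Rsad2 and the other members called between analogs were also described after their values were seen. Promoters were searched as strings. Printed windows were those of called members, and windows that ran into another transcript of the gene (Ddx60 and Gbp3 among them) were not printed. Alternatives were a fit of 2 groups alone, a replicate block, other gene filters, row means, repeated quantile normalization, all rows in the adjustment, a variance trend, and each array left out. Over all genes, arrays of the same replicate number were at most weakly alike (correlation of deviations -0.08 to 0.16 over 63 pairs, 1 above 0.1). The mean correlation was 0.03 for the same number and -0.01 for other numbers, and 14 of 21 arrays were closest to their own number. The labels do not say whether a number marks 1 preparation across treatments. Shared preparations therefore remain possible, and the main fit had no replicate block.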

Additional observations from a re-analysis of the deposited data

How the results depend on the processing

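Members called changed with the processing as follows; other counts stayed within 1.5 times. A fit of the 2 groups alone gave 0 calls with hPTH(1-31), hPTH(1-34) and PTH(1-36) against vehicle (2, 2 and 1 in the model of all groups), 1 for hPTH(7-34) against PTH(1-36) (7) and 0 for bPTH(3-34) against hPTH(1-34) (3). All rows in the adjustment gave 1 with hPTH(1-31), 1 with hPTH(1-34), 10 for hPTH(7-34) against hPTH(1-34) (17) and 1 for bPTH(3-34) against hPTH(1-34). Genes above the median level alone gave 3 with PTH(1-36), 1 with hPTH(7-34), Parp14, 14 for hPTH(7-34) against PTH(1-36), 1 against bPTH(3-34) and 15 in the F test (9). A variance trend with robust estimates gave 3 with PTH(1-36), 3 with hPTH(7-34) (Ifit1, Parp14 and Igtp), 1 against bPTH(3-34) and 15 in the F test. Quantile normalization repeated gave 11 for hPTH(7-34) against hPTH(1-34). The replicate block gave 1 with hPTH(1-34) against vehicle and 19 for hPTH(7-34) against hPTH(1-34); 14 of 21 arrays correlated best with their own number, which is a hint from the data and not from the design.

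Leaving out each array gave 1 to 2 calls with hPTH(1-31), 0 to 1 with hPTH(1-34), 1 to 3 with PTH(1-36) and 0 to 1 with hPTH(7-34) against vehicle. It gave 8 to 13 for hPTH(7-34) against hPTH(1-34), 8 to 13 against hPTH(1-31) and 3 to 9 against PTH(1-36), 0 to 2 for bPTH(3-34) against hPTH(1-34) and 5 to 13 in the F test. The cause of these changes was not tested. No called difference of a named member changed sign, whereas the members' medians against vehicle, all near 0 for hPTH(1-31), hPTH(1-34), PTH(1-36) and bPTH(7-34), did so when 1 array was left out. The median difference of the members between hPTH(7-34) and vehicle stayed between +0.22 and +0.43. A difference below about 0.30 in 1 gene is within the interval that 3 arrays allow.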

Other observations

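The rows shared by several genes held 2 members and a neighbour. The row of Gbp2 and Gbp2b differed by +0.40 between hPTH(7-34) and vehicle (vehicle 7.23 ± 0.37, not called) and was higher with hPTH(7-34) than with hPTH(1-34) by 0.70 (limma, adjusted p over all rows = 0.0121). The row of Dtx3l and Parp9 differed by +0.28 and +0.46 in the same comparisons (the second with a limma adjusted p over all rows of 0.0118), beside +0.40 and +0.54 for the row of Parp9 alone. The row of Oas1a and Oas1g differed by +0.02 and +0.20, neither called. Which gene of a shared row gave its signal was not measured.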
